A study of Canis lupus familiaris with 34 samples.

Results

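Genes that mark melanocytes, 9 in number, were examined in mitral valve RNA of 34 Cavalier King Charles Spaniels (CKCS). They are PMEL, MLANA, TYR, TYRP1, DCT, MITF, SLC45A2, OCA2 and MC1R, and they were taken by symbol from the 23768 features of the deposited count table. Where a gene was listed both as a canine RefSeq feature and as a human XenoRefSeq feature, the canine RefSeq feature was used, which was possible for 8 of the 9. The dogs were privately owned, about 10 years old and euthanized electively, and RNA was isolated from whole valve tissue. The 10y-noCHF group held 19 dogs without congestive heart failure (CHF), 10 females and 9 males, most of which had some degree of myxomatous mitral valve disease (MMVD). The 10y-MMVD-CHF group held 15 dogs, 6 females and 9 males, in which the valve disease had led to CHF. No dog received an experimental treatment, and the comparison asks whether valve expression differs with CHF. The CHF diagnosis rested in part on the response to diuretics, and the labels give no medication. Effects of medication therefore cannot be told apart from those of CHF.

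Melanocytes are pigment cells derived from the neural crest, and besides skin and eye they are known to settle in heart valves and septa of mice and other mammals. In them the transcription factor MITF switches on the pigment programme, PMEL builds the fibrils of the melanosome, and the enzymes TYR, TYRP1 and DCT make melanin on these fibrils. MITF is not restricted to melanocytes, since other isoforms of the same gene act in mast cells, osteoclasts, macrophages and heart muscle.

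The counts summed to between 46185256 and 82361245 per dog, with a median of 59857648.5, and both reads of a pair were counted. In whole valve RNA, fewer cells of a type and less RNA per cell cannot be told apart. Valve interstitial cell markers were abundant in every sample, and their summed level lay between 19318 and 65068 CPM (counts scaled to the library size). Cardiomyocyte markers varied most between dogs, from 57.1 to 56876 CPM in sum. Keratinocyte markers, which mark skin, were low, with a summed level of 6.23 to 14.1 CPM and KRT1 at 0 counts in all dogs. CAV614 and CAV1047, both 10y-MMVD-CHF, stood apart from the others. Their highest Pearson correlations with any other dog over 18419 features were 0.842 and 0.923, and every other dog reached at least 0.938.

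The pigment enzymes were at or near 0. DCT, dopachrome tautomerase (canFam4 chr22:45406488-45440246, minus strand, 8 exon intervals), had 0 counts in all 34 dogs. A count of 0 over all libraries allows up to 0.00142 CPM, and in a single dog up to 0.0364 to 0.0650 CPM depending on depth. These limits consider counting error only and take 3 counts as independent, and since both reads of a pair were counted, the limit can be up to 2 times as high. TYR, tyrosinase, which starts melanin synthesis (chr21:10884281-10984898, minus strand, 5 exon intervals), had 119 counts in all. TYR was above 0 in 15 dogs and highest in CAV1876 with 18 counts. TYRP1, the tyrosinase-related protein that acts later in eumelanin synthesis (chr11:33376152-33394014, plus strand, 7 exon intervals), had 134 counts in all. TYRP1 was above 0 in 19 dogs and highest in CAV749 with 28 counts. Most of the reads of each enzyme came from a few dogs, and the dogs that led for TYR were not those that led for TYRP1.

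MLANA, the melan-A protein of early melanosomes (chr11:26954654-26966694, plus strand, 4 exon intervals), had 57 counts in all and was above 0 in 9 dogs. The highest dog was again CAV1876, with 16 counts, followed by CAV748 and CAV373 with 10 counts each. Neither MLANA nor DCT reached the minimum of 100 counts over all dogs, so they entered no test, while the other 7 genes did. Of MLANA, TYR, TYRP1 and DCT, 3 dogs had none above 0, 20 dogs had 1, 10 dogs had 2 and 1 dog had 3. TYR and TYRP1 were both above 0 in 8 dogs, TYR and MLANA in 3 dogs, and TYR, MLANA and TYRP1 together only in CAV1097. That dog had 5 counts of MLANA, 1 of TYR and 2 of TYRP1. Since both reads of a pair were counted, a count of 2 can come from a single pair. The summed counts of the 4 genes had a median of 8 per dog and a maximum of 34, in CAV1876. At such low numbers a dog with 0 counts may still express the gene below the detection limit.

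**Figure D1:**
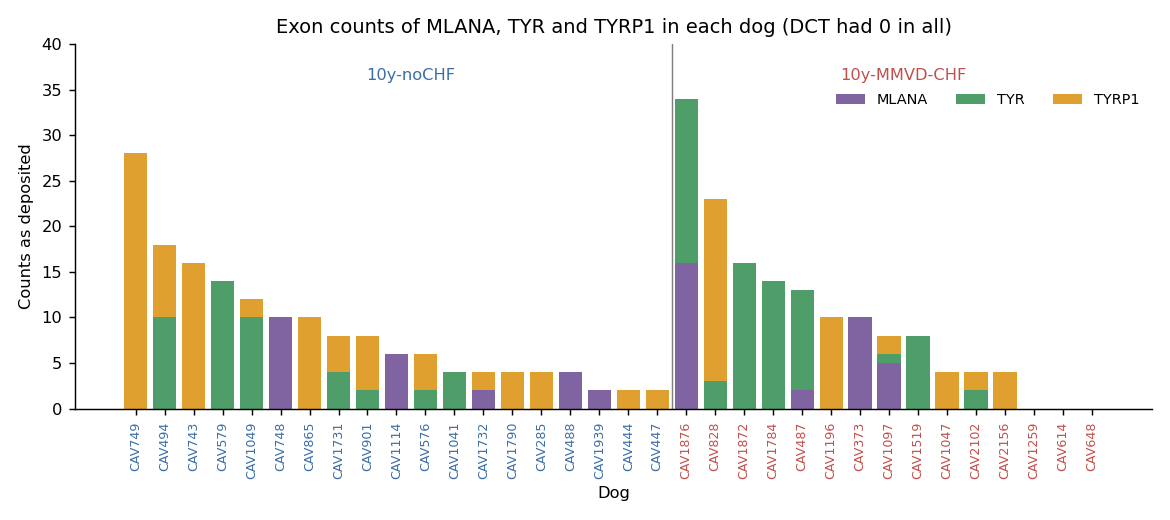
Exon counts as deposited of MLANA, TYR and TYRP1 (stacked bars, vertical axis in counts) in each of the 34 dogs (horizontal axis), with the 19 10y-noCHF dogs on the left and the 15 10y-MMVD-CHF dogs on the right, sorted by the sum. The sum reached 34 counts in CAV1876 and 28 in CAV749, and 3 dogs, all 10y-MMVD-CHF, had none.

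PMEL, the amyloid-forming structural protein of melanosomes (chr10:644259-651766, minus strand, 11 exon intervals), was above 0 in every dog. PMEL had 36 counts in the lowest dog, a median of 94.5 and 214 in the highest, CAV487. Scaled to the library size, PMEL was highest in CAV444, with 2.86 CPM. SLC45A2, a transporter that raises melanosome pH (chr4:74750564-74777955, plus strand, 7 exon intervals), was likewise above 0 in every dog. SLC45A2 had 15 counts in the lowest dog, CAV648, a median of 35.5 and 74 in the highest, CAV1041. Both genes were at a low level in all dogs, unlike the enzymes, and the highest dog held 6.50% of all counts of PMEL and 5.48% of those of SLC45A2, against 15.1% for TYR and 20.9% for TYRP1.

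MC1R, the melanocortin receptor that turns on eumelanin synthesis, is a gene with a single coding exon (chr5:64186690-64187643, minus strand). MC1R had 348 counts in all, was above 0 in 29 dogs and was highest in CAV1790 with 28 counts. OCA2, a melanosomal anion channel, was listed only as a human XenoRefSeq span of 397583 bases that includes introns (chr3:32550257-32947838, plus strand) and overlaps the microRNA gene MIR8799G. OCA2 had 49 counts in the lowest dog, CAV488, a median of 121 and 221 in the highest, CAV1519. Scaled to the library size, OCA2 was highest in CAV1047, with 4.15 CPM. As the span is mostly intron, the level of OCA2 per length cannot be set beside those of the exon features.

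MITF (chr20:21991588-22022704, minus strand, 9 exon intervals) was the only gene of the group with a substantial count in each dog. MITF had 553 counts in the lowest dog, CAV488, a median of 1025 and 1959 in the highest, CAV1114. Scaled to the library size, MITF was highest in CAV1047, with 43.1 CPM. Which isoforms its exon feature covers was not examined, and the melanocyte isoform was not measured apart from the others.

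Per length, MITF had a mean of 11.4 ± 4.62 RPKM (CPM per kilobase of feature length, SD, n = 34). PMEL followed with 0.735 ± 0.255 RPKM, then SLC45A2 with 0.387 ± 0.159 RPKM and MC1R with 0.174 ± 0.145 RPKM. MLANA had 0.0748 ± 0.165 RPKM, TYR 0.0334 ± 0.0515 RPKM and TYRP1 0.0281 ± 0.0429 RPKM. In 34 of 34 dogs MITF was above PMEL, and in 31 of 34 PMEL was above SLC45A2 (two-sided sign-flip permutation tests within dogs with 100000 resamples, adjusted p = 1.75e-05 for each over 7 neighbouring pairs). SLC45A2 was above MC1R in 29 dogs (permutation test, adjusted p = 1.75e-05) and MC1R was above MLANA in 23 dogs (permutation test, adjusted p = 0.0108). MLANA and TYR did not differ beyond their spread (permutation test, adjusted p = 0.187), nor did TYR and TYRP1 (permutation test, adjusted p = 0.679). MLANA had the higher mean but was above TYR in 8 dogs and below it in 13. The neighbouring pairs were set by ranking the means of these same values, so the tests give no independent support for the order. Among the 2165 canine RefSeq features, of which 16.3% had 0 counts in all dogs and whose median was 1.16 RPKM, MITF stood at the percentile 71.2. PMEL stood at 47.4, SLC45A2 at 43.6, MC1R at 38.7, MLANA at 33.2, TYR at 28.1 and TYRP1 at 27.4. These features are only a part of the 23768 listed and include the microRNA gene MIR8799G. The percentiles therefore give no rank among all genes expressed in the valve.

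**Figure D2:**
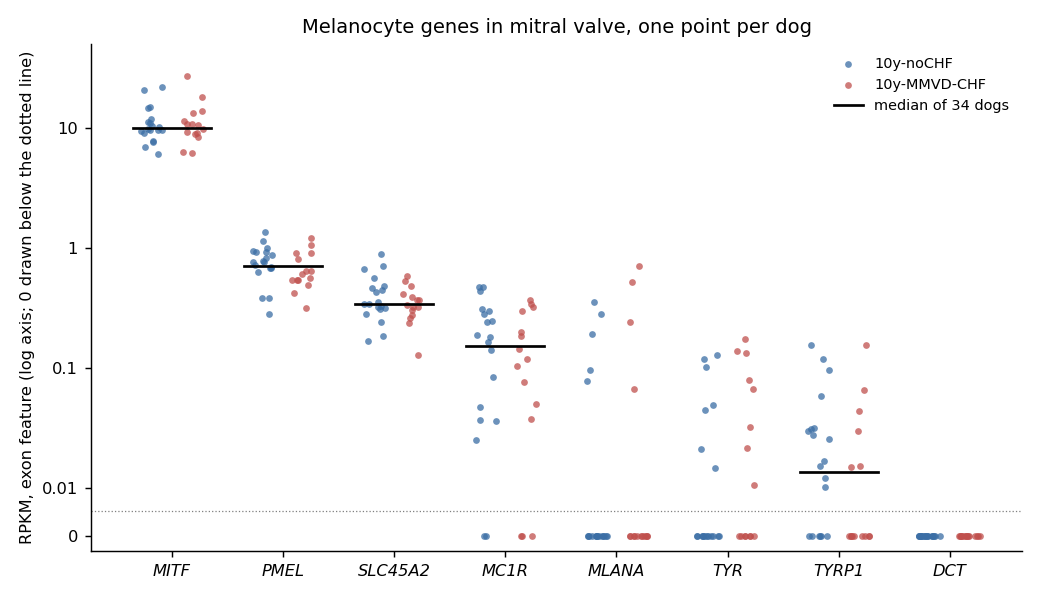
RPKM of the 8 exon features (vertical log axis, with 0 drawn below the dotted line) in each dog, 10y-noCHF in blue and 10y-MMVD-CHF in red, with the median of 34 dogs as a bar where it is above 0. MITF lay between 6.03 and 26.98 RPKM, PMEL reached at most 1.36 and SLC45A2 at most 0.890 RPKM, and MLANA, TYR, TYRP1 and DCT at 0 in many or all dogs.

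Not all reads inside the gene spans fell on the canine RefSeq exons. The human XenoRefSeq feature of each gene covers its whole span, and a read was counted on every feature it overlapped, so the exon counts can be set against it. The canine RefSeq exons held 69.8% of the span counts of TYRP1, 62.3% of PMEL, 51.4% of SLC45A2, 38.3% of MITF, 28.7% of TYR and 11.4% of MLANA. Of 1733 symbols with both kinds of feature, 866 had at least 100 exon counts and exons largely inside a longer span on a single chromosome. Their median share was 72.2%. Per base, these exons had 84.1 times the counts of the remaining span for MITF, 24.04 times for TYR, 16.2 times for SLC45A2 and 15.9 times for TYRP1. MLANA with 5.69 times and PMEL with 4.28 times were lower, at the percentiles 14.2 and 10.3 of the 866 symbols, whose median was 31.1 times. With 57 exon counts MLANA was itself below the minimum for these symbols, so its percentile is only a rough guide. For DCT the span held 24 counts in 3 dogs, 14 of them in CAV488, with none in the canine RefSeq exons. The rest of a span holds introns and any exons or UTRs that the canine feature lacks, such as those of other MITF isoforms, and these cannot be told apart here.

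None of the 7 genes tested differed between 10y-MMVD-CHF and 10y-noCHF at an FDR of 0.1 (edgeR quasi-likelihood test with sex as a fixed effect), against 0.118% of all 19568 features. At an unadjusted p below 0.05 there were 0 of the 7, against 6.31% of all features, and DESeq2 and limma voom called 0 as well. MITF had 9.63, 15.7 and 35.2 CPM in the lowest, median and highest 10y-noCHF dog. In 10y-MMVD-CHF, MITF had 9.96, 16.9 and 43.1 CPM. The ranges overlapped almost entirely and the log2 fold change was 0.10 (standard error 0.168, 95% interval -0.24 to 0.44, edgeR FDR = 0.962). Without CAV1047, the dog with the highest MITF level, it was -0.04.

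PMEL had 0.591, 1.62 and 2.86 CPM in the lowest, median and highest 10y-noCHF dog. In 10y-MMVD-CHF, PMEL had 0.665, 1.27 and 2.57 CPM, and in 10 of its 15 dogs the level was under the median of 10y-noCHF. The groups overlapped, and the log2 fold change was -0.22 (standard error 0.183, 95% interval -0.59 to 0.15, edgeR FDR = 0.904). SLC45A2 had 0.283, 0.575 and 1.498 CPM against 0.218, 0.564 and 0.9751 CPM in the lowest, median and highest dog of 10y-noCHF and 10y-MMVD-CHF. Its log2 fold change was -0.20 (95% interval -0.63 to 0.24, edgeR FDR = 0.939). The intervals of MITF, PMEL and SLC45A2 together span -0.63 to 0.44 on the log2 scale.

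OCA2 had 0.854, 2.22 and 3.77 CPM against 1.26, 1.83 and 4.15 CPM in the lowest, median and highest dog of 10y-noCHF and 10y-MMVD-CHF. Its log2 fold change was -0.07 (95% interval -0.43 to 0.29, edgeR FDR = 0.973), and 11 of the 15 dogs with CHF were under the median of 10y-noCHF. MC1R was at 0 in 2 10y-noCHF and 3 10y-MMVD-CHF dogs and had medians of 0.174 and 0.114 CPM. Its log2 fold change was -0.36 (95% interval -1.52 to 0.80, edgeR FDR = 0.959).

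For the enzymes TYR and TYRP1 the intervals were wide. Their counts were low. The spread between dogs that edgeR fitted beyond counting error, as a coefficient of variation, was 1.99 for TYR, 1.64 for TYRP1 and 0.340 for MITF. Among features of similar level these values stood at the percentiles 86.1 for TYR, 65.1 for TYRP1 and 87.5 for MITF. Since both reads of a pair were counted, part of the fitted spread of TYR and TYRP1 can be counting error. TYR was above 0 in 7 of 19 10y-noCHF dogs, with at most 14 counts, and in 8 of 15 10y-MMVD-CHF dogs, with at most 18 counts. The log2 fold change of TYR was 0.99 (standard error 0.813, 95% interval -0.66 to 2.64, edgeR FDR = 0.903). It ranged from 0.65 without CAV1784 to 1.80 without CAV1049. TYRP1 was above 0 in 13 of 19 10y-noCHF dogs and in 6 of 15 10y-MMVD-CHF dogs. The log2 fold change of TYRP1 was -0.61 (standard error 0.778, 95% interval -2.19 to 0.97, edgeR FDR = 0.948). It ranged from -1.33 without CAV828 to -0.35 without CAV749. MLANA was above 0 in 5 of 19 and 4 of 15 dogs. For TYR and TYRP1 differences within these intervals were not detectable with these counts and this spread between dogs.

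Between the sexes no gene of the 7 passed an FDR of 0.1 (edgeR), where 0.143% of all features did, and DESeq2 also called 0. At an unadjusted p below 0.05 there was 1 of the 7, MITF, against 2.98% of all features. MITF had 12.2, 16.9 and 43.1 CPM in the lowest, median and highest female and 9.63, 15.1 and 28.9 CPM in males. The log2 fold change, male minus female, was -0.38 (standard error 0.168, 95% interval -0.72 to -0.04, edgeR FDR = 0.9997), and 11 of 18 males lay below the female median. Without CAV1047, a female, it was -0.26. The mean of the cardiomyocyte marker list was 6.09 ± 2.84 (SD, n = 16) in females and 5.45 ± 3.24 (SD, n = 18) in males on the log2(CPM + 0.1) scale. Its medians went the other way, with 6.32 in females and 6.73 in males. The mean of the Schwann cell list was 2.07 ± 0.996 in females and 1.75 ± 0.755 in males (SD, n = 16 and 18). For the mast cell list it was -0.23 ± 0.981 in females and -0.70 ± 0.735 in males (SD, n = 16 and 18). Medians of the Schwann cell list were 1.77 in females and 1.65 in males, and those of the mast cell list -0.37 and -0.74. The part of these lists in the sex difference of MITF was not tested.

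TYR and TYRP1 had log2 fold changes between the sexes of -1.08 (95% interval -2.74 to 0.58) and 1.08 (95% interval -0.49 to 2.65), both with edgeR FDR = 0.9997. The CHF difference itself did not differ between females and males for any of the 7 genes at an FDR of 0.1 (edgeR interaction term). This term called 0 of all 19568 features with edgeR, or 0%, with 1178 features at an unadjusted p below 0.05, and DESeq2 called 3. Of the 7 genes 0 were at an unadjusted p below 0.05.

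**Figure D3:**
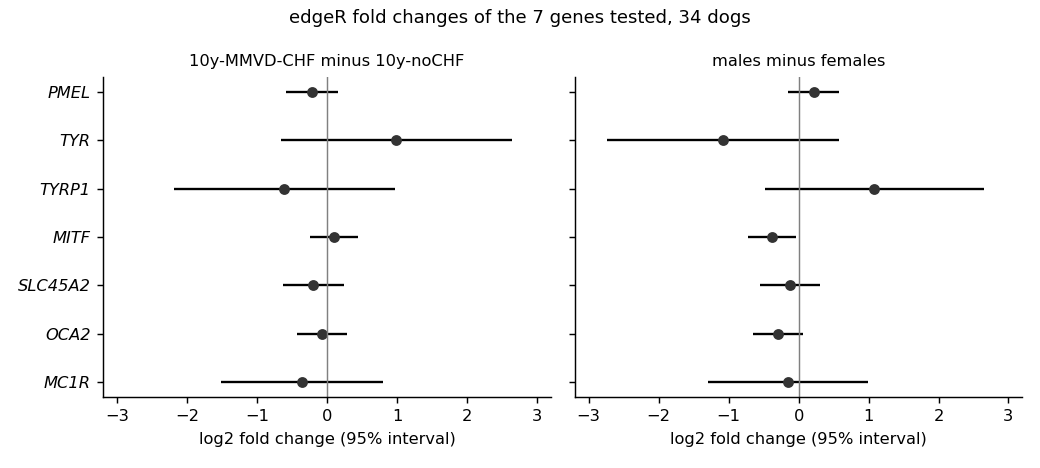
Log2 fold changes (points) with 95% intervals (lines) of the 7 genes tested with edgeR, for 10y-MMVD-CHF minus 10y-noCHF (left) and males minus females (right). All intervals on the left include 0, and those of TYR and TYRP1 are the widest. On the right the interval of MITF, -0.72 to -0.04, excludes 0 before adjustment.

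Further genes of the pigment system were taken from lists, which also hold some of the 9 genes. Over all 19568 features 0.118% passed an FDR of 0.1 for CHF, and the counts below are to be read beside this share. Of the melanosome enzymes and structural genes, 8 of 10 were tested and 0 passed an FDR of 0.1 for CHF. The median log2 fold change of the 8 was -0.15, and that of all features was 0.01. Besides the genes above, the list holds SLC24A5, a melanosomal ion exchanger, GPR143, a melanosomal receptor, and TRPM1, a channel of melanocytes and retina. They had 23.6 ± 3.78, 7.56 ± 1.71 and 0.571 ± 0.261 CPM (SD, n = 34), all on span features that include introns, and the span of SLC24A5 overlaps MYEF2.

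All 16 genes of melanosome biogenesis and transport were tested, and 0 passed for CHF, and the median log2 fold change was 0.05. These genes also serve lysosome-related organelles in other cells. AP3B1, a subunit of the AP-3 sorting adaptor, had 13.99 RPKM and RAB27A, the GTPase that carries mature melanosomes, had 7.38 RPKM on exon features. BLOC1S3, a subunit of the BLOC-1 sorting complex, had 5.07 RPKM and HPS3, of BLOC-2, had 1.54 RPKM on span features that overlap MARK4 and CP. MLPH, which links RAB27A to the motor protein myosin Va in melanocytes, had 0.470 ± 0.338 CPM (SD, n = 34). MLPH was named after its values were seen.

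Of the regulators of the melanocyte lineage, MITF and MC1R included, 16 of 16 were tested and 0 passed for CHF, and the median log2 fold change was -0.12. SNAI2, a transcription factor of neural crest and mesenchyme, had 26.0 RPKM. EDNRB, the endothelin receptor of melanocyte precursors, had 4.65 RPKM and KITLG, the ligand of the receptor KIT, had 1.77 RPKM, all on exon features, of which that of EDNRB overlaps EDNRB-AS1. SOX10, the neural crest factor that activates MITF, and PAX3 were named after their values were seen. SOX10 lay between 0.0480 and 8.76 CPM with a median of 0.920 CPM, on a span feature that overlaps POLR2F, and was highest in CAV1114. PAX3 had 101 counts in all.

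A further list held the MiT family, MITF included, and lysosomal and other genes taken as its targets. Of these, 11 of 11 were tested and 0 passed for CHF. Their median log2 fold change was 0.01, as for all features. CTSK, cathepsin K, had 276 RPKM and ACP5, an acid phosphatase, had 6.68 RPKM on exon features. TFE3, a relative of MITF, had 4.87 RPKM and GPNMB, a glycoprotein of macrophages and melanocytes, had 1.98 RPKM on span features. The log2 fold changes of CTSK, ACP5, TFE3 and GPNMB were -0.05, 0.04, -0.04 and 0.23.

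Among the marker lists of other cell types, 0 of 11 Schwann cell, 0 of 10 mast cell, 0 of 12 macrophage, 0 of 19 cardiomyocyte, 0 of 12 valve interstitial cell, 0 of 3 keratinocyte and 0 of 6 red blood cell genes tested passed for CHF. Of 10 endothelial markers 1 passed, VWF, with a log2 fold change of 1.40 (edgeR FDR = 0.0678). Over all 19568 features 0.118% passed.

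By rank, no pair of the 7 genes varied together beyond the threshold over dogs. For each pair of the 7 genes, log2(CPM + 0.1) was correlated over 34 dogs after the means of the 4 groups of CHF and sex had been removed. The 21 values of Spearman's rho ranged from -0.38 to 0.47, and 10 were positive and 11 negative. At an unadjusted permutation p below 0.05 there were 3, and 0 after adjustment over the 21 pairs. Over the 15 pairs without MITF the median was 0.02. The highest value was between MITF and OCA2, with Spearman's rho of 0.47 (permutation p = 0.00662, adjusted p = 0.139) and Pearson's r of 0.53 (permutation p = 0.00134, adjusted p = 0.0281). Without CAV1047 and CAV1731, the 2 dogs farthest from the median of MITF, r was 0.41. By rho it was 0.48 in 10y-noCHF and 0.40 in 10y-MMVD-CHF. PMEL and MITF had a rho of -0.38 (permutation p = 0.0341, adjusted p = 0.350) and an r of -0.32 (permutation p = 0.0817, adjusted p = 0.572). The counts of TYR and TYRP1 were too sparse for a weak correlation to be read. PMEL and TYR had a rho of 0.21 (permutation p = 0.243, adjusted p = 0.5997) and an r of 0.17 (permutation p = 0.334, adjusted p = 0.785). TYR and TYRP1 had a rho of -0.15 (permutation p = 0.321, adjusted p = 0.5997) and an r of -0.16 (permutation p = 0.367, adjusted p = 0.785).

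The 7 genes were next set against the mean level of 6 marker lists and against total counts, in the same way, which gave 49 relations. All values share the scaling of a library, so a gene and a list can move together through it. By rho, 9 relations passed an adjusted p of 0.1, of which 5 belonged to MITF, and by r 11 passed. MITF rose with the Schwann cell markers, with rho of 0.71 (permutation p = 2e-05, adjusted p = 9.8e-04) and r of 0.75 (permutation p = 1e-05, the minimum for 100000 permutations, adjusted p = 4.9e-04). Without CAV1047 and CAV1731 r was 0.69, and rho was 0.68 in 10y-noCHF and 0.69 in 10y-MMVD-CHF. The summed level of these markers lay between 102 and 383 CPM in 10y-noCHF and between 82.5 and 555 CPM in 10y-MMVD-CHF, and 11 of the 12 genes were listed, S100B not being among them. MITF also rose with the cardiomyocyte markers, with rho of 0.65 (permutation p = 9e-05, adjusted p = 0.00163) and r of 0.60 (permutation p = 3.6e-04, adjusted p = 0.00588). With the mast cell markers rho was 0.65 (permutation p = 1e-04, adjusted p = 0.00163) and r was 0.64 (permutation p = 6e-05, adjusted p = 0.00147). CAV1047, the dog with the highest MITF level, was also the highest for the Schwann cell and the cardiomyocyte markers. SOX10 is on both the Schwann cell and the lineage list, and KIT on both the mast cell and the lineage list. Without CAV1047 and CAV614 the values of rho were 0.61 for Schwann cell, 0.57 for cardiomyocyte and 0.64 for mast cell markers. The part of these cell types in the MITF level was not tested.

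The summed level of the cardiomyocyte markers, all 19 of them tested, lay between 57.1 and 27263 CPM in 10y-noCHF and between 80.2 and 56876 CPM in 10y-MMVD-CHF. That of the 10 mast cell markers lay between 33.9 and 92.0 CPM in 10y-noCHF and between 40.1 and 111 CPM in 10y-MMVD-CHF. Most of this sum was GATA2, a transcription factor also of endothelium, with a mean of 43.7 CPM, so the sum is no measure of mast cells. The receptor KIT had a mean of 0.762 CPM, the carboxypeptidase CPA3 0.651 CPM, the tryptase TPSAB1 0.350 CPM and the chymase CMA1 0.250 CPM. TPSAB1 and TPSB2 hold the same 753 counts, so tryptase entered the list under both symbols. MITF fell with the valve interstitial cell markers, with rho of -0.43 (permutation p = 0.0152, adjusted p = 0.0984) and r of -0.47 (permutation p = 0.00898, adjusted p = 0.0624), and with total counts, with rho of -0.42 (permutation p = 0.0181, adjusted p = 0.0988) and r of -0.48 (permutation p = 0.00696, adjusted p = 0.0568). Neither of these relations passed without CAV1047 and CAV614, where rho was -0.37 and -0.26 (permutation test, adjusted p = 0.255 and 0.426). With total counts, rho was -0.19 in 10y-noCHF and -0.68 in 10y-MMVD-CHF. With the macrophage and endothelial markers MITF had a rho of -0.27 and 0.16, which did not pass.

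**Figure D4:**
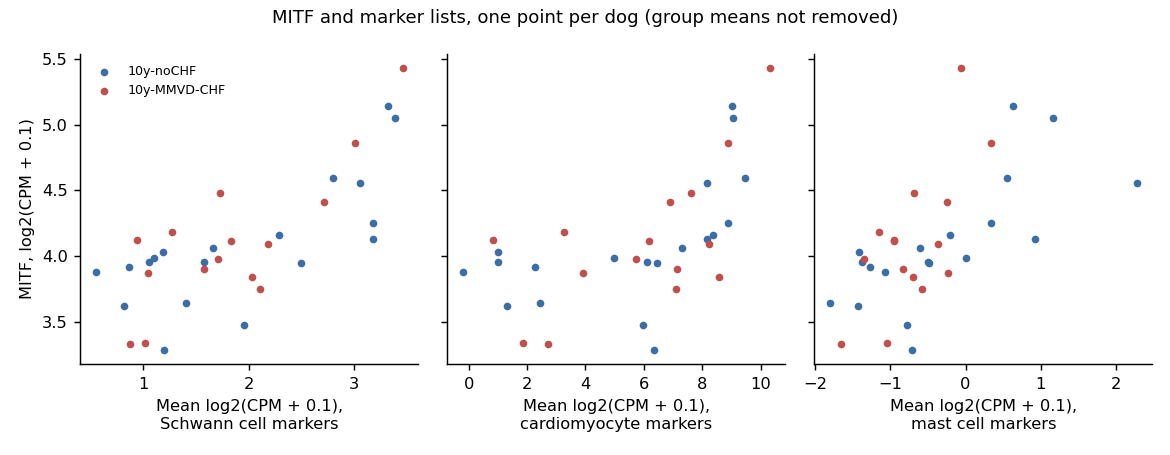
MITF, as log2(CPM + 0.1) on the vertical axis, against the mean log2(CPM + 0.1) of Schwann cell, cardiomyocyte and mast cell markers on the horizontal axes, one point per dog and with group means not removed. The topmost point in each panel is CAV1047 with 43.1 CPM of MITF, and it lies farthest to the right for Schwann cell and cardiomyocyte markers but not for mast cell markers.

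OCA2 rose with the Schwann cell markers too, with rho of 0.57 (permutation p = 0.00111, adjusted p = 0.0136) and r of 0.52 (permutation p = 0.00319, adjusted p = 0.0313). Without CAV1047 and CAV488, the dogs farthest from the median of OCA2, r was 0.47. SLC45A2 rose with the valve interstitial cell markers, with rho of 0.45 (permutation p = 0.0161, adjusted p = 0.0984) and r of 0.57 (permutation p = 0.00149, adjusted p = 0.0183). Its rho was 0.62 in 10y-noCHF and 0.16 in 10y-MMVD-CHF, although a test of group against group was not made. PMEL fell with the endothelial markers, with rho of -0.48 (permutation p = 0.00551, adjusted p = 0.0540) and r of -0.47 (permutation p = 0.0102, adjusted p = 0.0624). With the mast cell markers PMEL had a rho of -0.43 (permutation p = 0.014, adjusted p = 0.0984) and an r of -0.45 (permutation p = 0.0143, adjusted p = 0.0635), and without CAV1047 and CAV614 the rho was -0.41 (permutation test, adjusted p = 0.147). TYR, TYRP1 and MC1R had no relation past an adjusted p of 0.1 by rho. By r alone, TYR passed with the valve interstitial cell markers (r = 0.44, permutation test, adjusted p = 0.0635) and SLC45A2 with the endothelial markers (r = -0.46, permutation test, adjusted p = 0.0635).

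**Figure D5:**
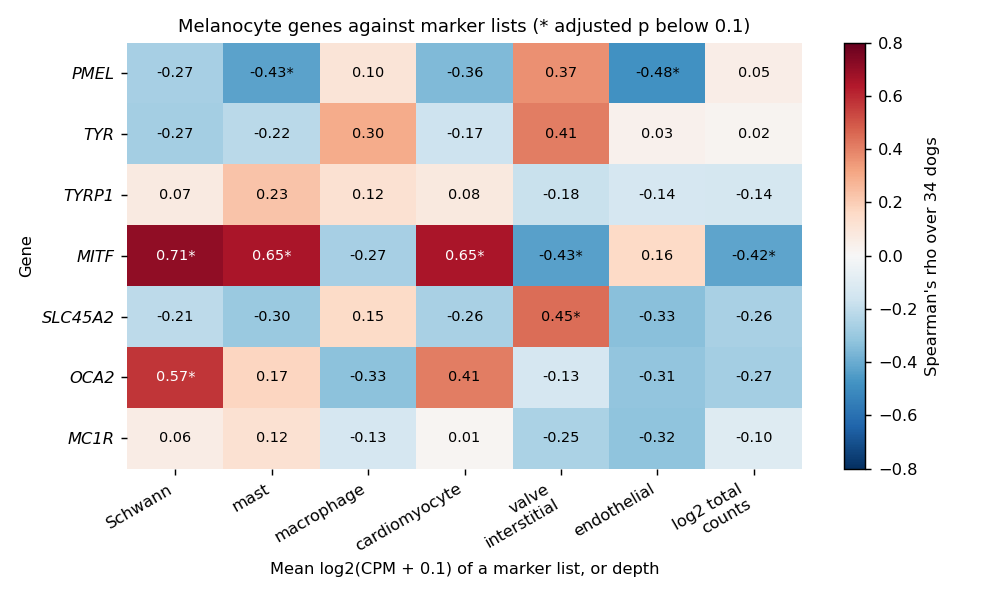
Spearman's rho over 34 dogs (colour and number, group means removed) between each of the 7 genes tested (rows) and 6 marker lists and log2 total counts (columns), with an asterisk where the adjusted permutation p is below 0.1. The row of MITF holds 5 of the 9 asterisks, with 0.71 for Schwann cell, 0.65 for mast cell and 0.65 for cardiomyocyte markers.

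Which genes were most like these was ranked by Spearman's rho over the 34 dogs, with group means removed, among 19554 other features and without a test. For MITF the 5 closest were CDC5L, a spliceosome component, with a rho of 0.90, the antisense transcript ILRUN-AS1 with 0.89, the membrane protein TMEM19 with 0.88, the nuclear corepressor NCOR1 with 0.88 and the cell polarity protein PATJ with 0.88. MITF shared this pattern with many features, since 1800 had a rho above 0.6, and none of the 5 is a pigment gene. For ILRUN-AS1 the counts used no strand, so reads of the opposite strand cannot be told apart from its own.

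For the pigment genes the mean of the standardized levels of PMEL, TYR and TYRP1 was used. The 12 closest symbols were TRPV4, RSPO1, SOWAHD, CYP2U1, CBY1, RBP4, GAS1, STMND1, POLD4, HTRA1, CIB1 and ERN2, with rho from 0.73 down to 0.55. Only 5 features had a rho above 0.6, and the lowest rho of all features was -0.67. The genes of the profile did not vary together, with rho of 0.21 for PMEL and TYR, -0.16 for PMEL and TYRP1 and -0.15 for TYR and TYRP1. Whether chance alone would give such a ranking was not tested. TRPV4, a calcium-permeable channel, had 0.701 CPM on average, RSPO1, which enhances WNT signalling, had 0.700 CPM, and RBP4, the carrier of retinol, had 178 CPM. The profile itself had a rho of 0.62 with PMEL, 0.60 with TYR and 0.33 with TYRP1. None of the 12 symbols is on the pigment gene lists used here.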

How the data were processed

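Poly-A RNA of mitral valves from 34 dogs had been sequenced as paired reads. The authors mapped the reads with STAR to canFam4 (UU_Cfam_GSD_1.0) and counted them with featureCounts 2.0.3. The values they deposited are raw counts of reads per feature. A read was assigned to every feature it overlapped, without strand, and the reads of a pair were counted separately, so 68.3% of the counts above 0 of these genes were even. Canine RefSeq features hold exons, and human XenoRefSeq features hold whole spans. Of the count columns, 1 matched no sample and was not used.

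The 19568 features that reached 100 counts over all dogs were tested with edgeR 4.0.16 in R 4.3.3 (quasi-likelihood test, TMM scaling, terms for group and sex, Benjamini-Hochberg over all features, FDR threshold 0.1). Standard errors are the fold change over the root of the F statistic, an approximation. CPM are TMM-scaled, and RPKM are CPM per kilobase of the length given in the file. Correlations used log2(CPM + 0.1), residuals on the 4 groups of CHF and sex, and 100000 permutations within them (two-sided). DESeq2 1.42.0 and limma 3.58.1 were alternatives, besides other normalizations, filters, covariates and pseudocounts and leaving out each dog. On simulated data for the CHF comparison, with 200 of 19568 features changed, edgeR recovered 88.5%. The changed features were drawn at random, and their changes were larger than the CHF fold changes estimated for the melanocyte genes. This share therefore does not give the power for these genes. The labels give each sample as 1 dog, and groups and sexes follow them. The genes and the lists were chosen with earlier results of these data known. All 9 genes are named, of each other list up to 4 genes with the highest RPKM and those that passed, and the 12 and 5 symbols most like the pigment profile and MITF. Intervals of fold changes include the spread between dogs. Limits for counts of 0 cover counting error only and take reads as independent. No sequences are shown, since none were at hand.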

Additional observations from a re-analysis of the deposited data

Results flagged for a closer look

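In 32 groups of dogs of the same CHF status and sex, the highest and the lowest dog was compared with the nearest other dog on the log2(CPM + 0.1) scale. In 5 of them the gap, as a share of the range of the group, was above the critical value of Dixon's test. For values near a normal distribution chance gives about 1 in 20 groups, but this rate does not hold for MLANA, TYR and TYRP1, where many dogs are at 0. MLANA in 10y-MMVD-CHF females had a gap of 1 range, which follows from CAV1876 having 16 counts and the other 5 females 0. TYR in 10y-noCHF males had a gap of 0.801, with 10 counts in CAV1049 and 2 in CAV901. TYRP1 in 10y-MMVD-CHF males had a gap of 0.652, with 20 counts in CAV828 and 4 in CAV2156. MITF in 10y-MMVD-CHF females had a gap of 0.657, with 43.1 CPM in CAV1047 and 21.2 CPM in CAV1876. SLC45A2 in 10y-MMVD-CHF males had a gap of 0.501 at the lower end, with 0.218 CPM in CAV648 and 0.462 CPM in CAV1784.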

How the results depend on the processing

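With each alternative to the test, the normalization, the filter, the covariates or the feature, 0 of the genes were called for CHF, and the same held for sex and the interaction with DESeq2. Leaving out each dog in turn also gave 0 for CHF and for sex. Over all features DESeq2 called 64 for CHF, edgeR 23 and edgeR without the sex term 13, and with 1 dog left out edgeR called 8 to 28. Of 89 fold changes under the alternatives that keep all dogs, 88 kept their direction, and the exception was the interaction of MITF with DESeq2, at -0.00475 on the log2 scale. With 1 dog left out, the CHF fold change of MITF ranged from -0.038 without CAV1047 to 0.15 and that of OCA2 from -0.17 to 0.022 without CAV444, while the other 474 of 476 values kept their direction. TYR and TYRP1 could not be fitted with filterByExpr, and the unadjusted edgeR p of TYR for CHF was 0.0408 without CAV1049. No paired analysis was possible because the dogs of the groups are different animals with no shared number.

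The median rho of the 15 pairs without MITF, 0.02, became 0.11 with a pseudocount of 0.01 CPM, 0.0489 without removal of group means, 0.0469 with the cardiomyocyte mean removed, and between -0.026 without CAV579 and 0.11 without CAV749. Pairs past an adjusted p of 0.1 numbered 1 without removal of group means (MITF and OCA2, rho 0.51) and 2 on the other feature of each gene (MITF and SLC45A2, rho -0.46, MITF and OCA2, rho 0.48). Weak values of rho changed sign. TYRP1 and OCA2 had 0.11 with a pseudocount of 0.01 CPM, 0.00 with 1 CPM and 0.050 without removal of group means, where PMEL and TYRP1 had 0.00911 and PMEL and OCA2 -0.059. With the cardiomyocyte mean removed MITF and SLC45A2 had 0.077 and MITF and MC1R 0.018. On the other feature PMEL and OCA2 had -0.088, TYR and MC1R 0.045, MITF and MC1R 0.041, SLC45A2 and OCA2 -0.044, and SLC45A2 and MC1R 0.11. With 1 dog left out rho ranged from -0.080 to 0.068 for PMEL and OCA2, from -0.0027 to 0.22 for TYR and SLC45A2, from -0.12 to 0.16 for TYRP1 and OCA2, from -0.096 to 0.082 for MITF and MC1R, and from -0.15 to 0.0087 for OCA2 and MC1R. The cause was not tested.

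With a pseudocount of 1 CPM, and without CAV1047 and CAV614 (chosen after seeing the data), 6 of the 9 relations with lists and total counts passed. With 1 CPM those of MITF with the valve interstitial cell markers and total counts and of SLC45A2 with the valve interstitial cell markers did not pass (permutation test, adjusted p = 0.105 each). Low counts limit statements on MLANA, TYR, TYRP1 and DCT most, and for TYR and TYRP1 the spread between dogs does so too.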
